A study of Mus musculus with 17 samples.

Results

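Solute carriers are the transporters that move amino acids, sugars, ions, metals and cofactors across the membranes of a cell and its organelles. The genes described here are the 164 rows, of 21683 in the expression table, whose symbol starts with Slc and a number and which reached at least 1 TPM (transcripts per fixed total of transcripts, a level that is set per length) in at least 5 of 17 libraries. They were thus chosen by their measured levels. Of 373 symbols of that form, 173 passed this limit and 9 of those were left out by name (Slc2a1, Slc2a6, Slc16a1, Slc16a3, Slc7a2, Slc7a11, Slc40a1, Slc11a1 and Slc11a2, carriers of glucose, lactate, arginine, cystine and iron). Of the 200 symbols that did not pass, 75 were listed at 0 in every library and 196 were under 1 TPM in every library. Ranked by the fifth highest TPM over the libraries, which decides the limit, the members nearest the limit were Slc39a2 (1.01 TPM), Slc10a6 (1.08) and Slc29a2 (1.17), and the nearest symbols below it were Slc22a15 (0.948), Slc52a3 (0.686) and Slc6a4 (0.681). A library of each of the 3 groups reached 1 TPM for 148 members, whereas 12 members reached it in PBS libraries only, which they could not do without being lower after Tat. The 12 were Slc12a2, Slc13a3, Slc17a9, Slc25a35, Slc29a2, Slc2a3, Slc39a4, Slc39a8, Slc46a1, Slc46a3, Slc9a3r2 and Slc9a9. The counts by class below include them.

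RNA-Seq was performed on peritoneal macrophages (PMs) of 8-week-old C57BL/6 mice in 3 groups. IKKβF/FLDLR-/- PMs were given PBS (F/F PBS, n = 6 libraries) or the HIV protein Tat at 100 nM (F/F Tat, n = 6), and IKKβΔMyeLDLR-/- PMs were given the same dose of Tat (ΔMye Tat, n = 5). The mice of all 3 groups lacked the LDL receptor, carried loxP-flanked alleles of IKKβ, the kinase that activates canonical NF-κB signalling, and had been injected with 1 mL of 3% thioglycollate, an irritant that draws macrophages into the peritoneum. The treatment lasted 12 h and followed 4 h of attachment. According to the methods, all mice were male and ΔMye mice carried 1 knock-in copy of LysM-Cre, which deletes IKKβ in cells of the myeloid lineage. Isolation came 3 days after thioglycollate by the labels and 4 days after by the methods. ΔMye PMs given PBS were not analysed here, so a genotype difference present before Tat and one in the response to Tat cannot be told apart. The study's figure legends describe the libraries of a group as coming from separate mice, which the labels do not state.

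Carriers of the plasma membrane set which nutrients enter a macrophage, and many work as antiporters that export one substrate to import another. Carriers of the lysosome return amino acids, peptides, nucleosides and haem from digested cargo to the cytosol, and those of the inner mitochondrial membrane exchange nucleotides, phosphate and metabolites with the matrix. In macrophages, several lysosomal and amino acid carriers are also known for their part in nutrient sensing and in the response to microbial products.

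The listed genes summed to 889318 to 903576 TPM per library, and TPM keep no read counts, so their depth is not known and counting intervals are not given. Ikbkb, the gene that encodes IKKβ, was at 24.5 to 30.1 TPM in F/F PBS, 21.6 to 25.4 in F/F Tat and 12.8 to 19.9 in ΔMye Tat, with a log2 difference between the Tat groups of -0.51 (adjusted p = 4.51e-05, limma). All 8 macrophage markers were detected, and their summed level was 25796 to 26807, 10310 to 10890 and 8019 to 8344 TPM in the 3 groups. The summed markers were 52.8 to 61.4, 65.7 to 77.8 and 87.8 to 106 TPM for neutrophils (8 genes, Elane at 0 in every library), 47.02 to 63.8, 23.8 to 27.4 and 23.1 to 35.9 for B cells (6 genes), and 33.5 to 46.3, 32.3 to 44.01 and 24.9 to 31.6 for mast cells (6 genes). For T cells and innate lymphoid cells (7 of 8 genes in the table) they were 4.72 to 9.45, 2.14 to 3.52 and 7.18 to 9.39 TPM, and for mesothelial cells (6 genes) 3.73 to 5.88, 2.20 to 3.79 and 1.39 to 1.92. NK cell (5 genes) and eosinophil (4 genes) markers summed to at most 9.17 and 2.41 TPM in any library. The part of these cells in the results was not tested, and in bulk RNA fewer cells of a type and less RNA per cell cannot be told apart.

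Summed over each library, the 164 genes made up 0.620% to 0.676% of the listed TPM in F/F PBS, 0.705% to 0.728% in F/F Tat and 0.655% to 0.725% in ΔMye Tat. The sum was higher after Tat through 1 gene, Slc15a3. Without it, the members summed to 5210 to 5679 TPM in F/F PBS, 4539 to 4739 in F/F Tat and 4544 to 4973 in ΔMye Tat. The number of members at 1 TPM or more was 160 to 162, 141 to 145 and 145 to 149 in the libraries of the 3 groups. The median member was at 14.6, 8.01 and 10.4 TPM in the same order, while the 10 highest members held 44.7%, 69.7% and 62.4% of the summed TPM. Replicate libraries were close to each other, with a median coefficient of variation of 8.03%, 5.87% and 8.54% over the members with a group mean of at least 10 TPM (100, 72 and 84 genes).

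Differences between groups are given on the log2(TPM + 0.1) scale with their standard error (SE) and an adjusted p from limma over all 10451 genes tested. A gene was called where the adjusted p was under 0.01 and the fold change was over 3, the thresholds of the study. With Tat, 4 members were called higher, against 5.21% of all tested genes, and 49 were called lower, against 19.4%. Among the carriers left out by name, Slc7a2 (4.77), Slc2a6 (2.27), Slc7a11 (2.17) and Slc2a1 (1.64) also passed both thresholds as higher. Slc40a1 (-1.68) passed as lower and the rest of these were not called, so the member counts do not stand for all Slc symbols. By the adjusted p alone, 22 members rose, against 17%, and 125 fell, against 67.6%. The groups did not overlap for 136 members, against 77.6% of all tested genes. TPM are shares of a total, and the median of all tested genes moved by -0.65 with Tat and that of the members by -1.01. After median-ratio scaling, which centres the libraries on the typical gene, these medians were -0.03 and -0.38. On that scale 6 members were called higher (8.51% of all genes) and 23 lower (9.76%), and by the adjusted p alone 49 rose (37.1%) and 81 fell (38.1%). Because members had to reach 1 TPM and some could do so in 1 group only, these counts are a description and not a test of the family.

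**Figure D1:**
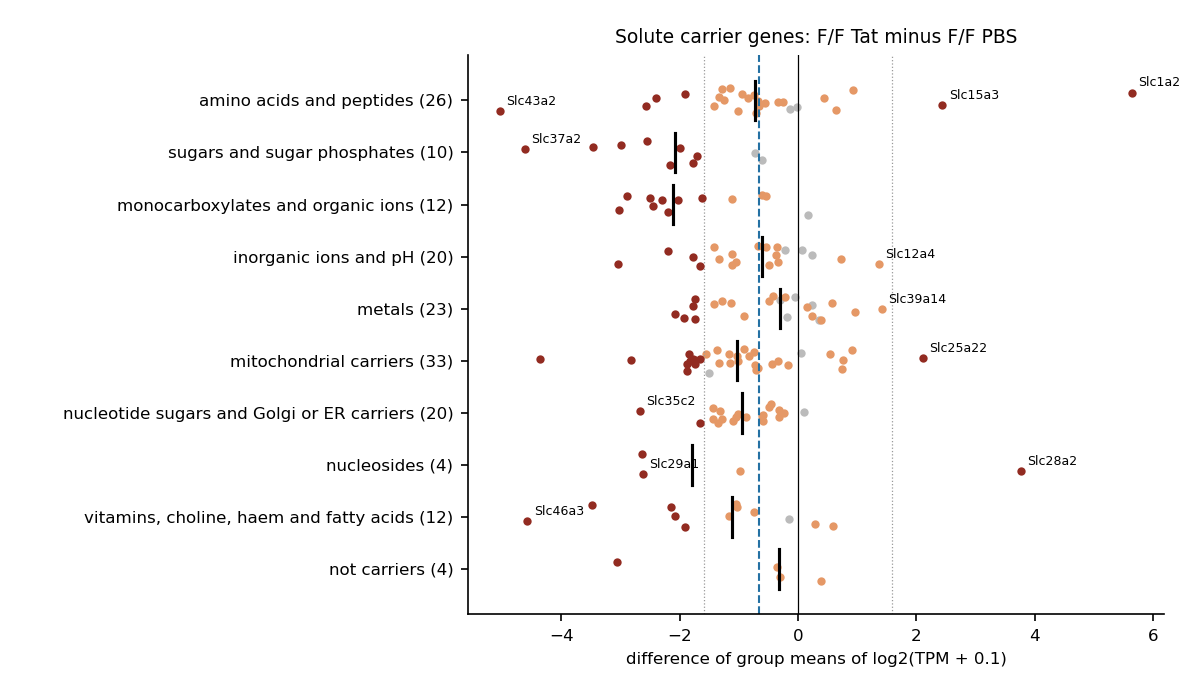
Each point is 1 of the 164 solute carrier genes, placed by its difference of F/F Tat from PBS (x axis, log2(TPM + 0.1)) in rows by substrate class with the number of members. Dark points were called, orange points passed the adjusted p alone, grey points neither; black bars are class medians, the dashed line is the median of all tested genes (-0.65) and dotted lines mark 3-fold. Slc1a2, Slc28a2, Slc15a3 and Slc25a22 lie to the right of the 3-fold line and 49 genes to the left of its counterpart were called lower.

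Promoters of 4 members that the results turn on are shown first: the members with the 2 highest rises with Tat, 1 with a steep fall and the member called between genotypes. Each is 250 bases before to 50 after the only start that RefSeq's table lists for the gene, on GRCm38.p6, written 5′ to 3′ on the gene's strand, with capitals for a motif match. The 4 motifs were searched on both strands, with the share of 32851 promoters of this length that hold each and the share of the 173 promoters matched to 125 members. A form of the NF-κB site, GGG and TTTCC with any 2 bases between them, was in 1.63% of all and 1.16% of the members' promoters. TGANTCA, the AP-1 site, was in 7.81% and 6.36%. TTCNNNGAA, the STAT site, was in 8.30% and 4.62%. CACGTG, an E-box, was in 7.15% and 15.6%. Slc1a2 (chr2:102706188-102706487, plus strand) and Slc16a10 (chr10:40142205-40142504, minus strand) held no match. Slc28a2 (chr2:122426185-122426484, plus strand) held a STAT match that starts 126 bases before the start, and Slc37a2 (chr9:37255689-37255988, minus strand) an AP-1 match that starts 107 bases before it. A match is a description of letters and not a site shown to be bound. The listed start of Slc1a2 lies inside the gene as GENCODE M21 bounds it (chromosome 2, 102658659 to 102790784).
Slc1a2: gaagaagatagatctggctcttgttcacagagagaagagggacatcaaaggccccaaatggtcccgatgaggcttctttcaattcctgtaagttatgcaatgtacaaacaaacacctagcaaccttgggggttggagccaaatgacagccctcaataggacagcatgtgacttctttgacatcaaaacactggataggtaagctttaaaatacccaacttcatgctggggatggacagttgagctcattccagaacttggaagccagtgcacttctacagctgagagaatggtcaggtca
Slc28a2: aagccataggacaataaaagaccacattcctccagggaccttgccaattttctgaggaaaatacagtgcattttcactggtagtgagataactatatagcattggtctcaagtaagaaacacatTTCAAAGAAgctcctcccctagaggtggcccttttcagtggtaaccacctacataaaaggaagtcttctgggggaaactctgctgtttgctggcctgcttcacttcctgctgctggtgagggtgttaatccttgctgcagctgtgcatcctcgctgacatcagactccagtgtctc
Slc37a2: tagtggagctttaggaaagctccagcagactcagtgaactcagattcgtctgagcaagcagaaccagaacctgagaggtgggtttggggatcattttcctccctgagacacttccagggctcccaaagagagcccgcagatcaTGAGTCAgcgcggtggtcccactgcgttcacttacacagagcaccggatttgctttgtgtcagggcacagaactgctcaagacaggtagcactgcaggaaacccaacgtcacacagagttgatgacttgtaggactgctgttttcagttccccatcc
Slc16a10: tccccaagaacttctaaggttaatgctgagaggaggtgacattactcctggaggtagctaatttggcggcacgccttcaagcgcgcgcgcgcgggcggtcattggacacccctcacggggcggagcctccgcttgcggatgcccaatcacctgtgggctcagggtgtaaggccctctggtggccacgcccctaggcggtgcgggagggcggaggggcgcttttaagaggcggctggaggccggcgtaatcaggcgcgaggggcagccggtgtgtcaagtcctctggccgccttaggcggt

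The 4 members called higher with Tat were Slc1a2, Slc28a2, Slc15a3 and Slc25a22, and each was lower again in ΔMye Tat than in F/F Tat while staying above the PBS level. Slc1a2, the sodium-coupled glutamate transporter best known from astrocytes, ranged from 0.458 to 1.72 TPM in F/F PBS (median 0.583) and from 35.8 to 45.3 in F/F Tat (median 38.04). In the 5 ΔMye Tat libraries it was at 21.8, 18.4, 21.9, 20.2 and 17.1 TPM. The 3 groups did not overlap, and PBS library 1 was the only one of its group at 1 TPM or more. Its log2 difference with Tat was 5.65 (SE 0.20, adjusted p = 1.77e-15, limma), and that of ΔMye Tat against F/F Tat was -0.99 (SE 0.21, adjusted p = 6.37e-04).

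Slc28a2, which takes up purine nucleosides against their gradient together with sodium, was at 33.2 to 38.8 TPM in F/F PBS (median 35.99) and at 464 to 527 in F/F Tat (median 487). The ΔMye Tat libraries had 240, 234, 240, 230 and 217 TPM, between the other groups and without overlap with either. Slc28a2 differed on the log2 scale by 3.76 with Tat (SE 0.04, adjusted p = 1.27e-23, limma) and -1.08 between the Tat groups (SE 0.04, adjusted p = 2.86e-13). Of its 31-base sequences 46.3% also occur in Gm14085, a gene that has no row under that name, so reads may have been split between them. A row named Slc28a2b reached at most 0.325 TPM in any library.

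Slc15a3, a lysosomal transporter of histidine, di- and tripeptides that include bacterial muropeptides, was the member with the highest TPM in both Tat groups. It had 316 to 360 TPM in F/F PBS (median 342) and 1801 to 1869 in F/F Tat (median 1834). In ΔMye Tat the values were 1525, 1444, 1410, 1476 and 1334 TPM, below each F/F Tat library and above each PBS library. The log2 difference was 2.44 with Tat (SE 0.03, adjusted p = 1.73e-22, limma) and -0.35 between the Tat groups (SE 0.03, adjusted p = 4.53e-08). Its overlapping neighbour Tmem132a, with 27.6% of the 31-base sequences in common, was at only 5.66, 1.65 and 2.54 TPM.

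Slc25a22, which carries glutamate into the mitochondrial matrix, was at 18.6 to 26.2 TPM in F/F PBS (median 21.8) and 88.3 to 102 in F/F Tat (median 94.2). ΔMye Tat libraries held 58.2, 55.2, 50.03, 55.5 and 54.0 TPM. These lay between the other groups without overlap. The log2 difference was 2.11 with Tat (SE 0.07, adjusted p = 2.57e-16, limma) and -0.79 between the Tat groups (SE 0.07, adjusted p = 2.35e-08). Each of these 4 rises was also called after median-ratio scaling, as were those of Slc12a4 and Slc39a14.

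**Figure D2:**
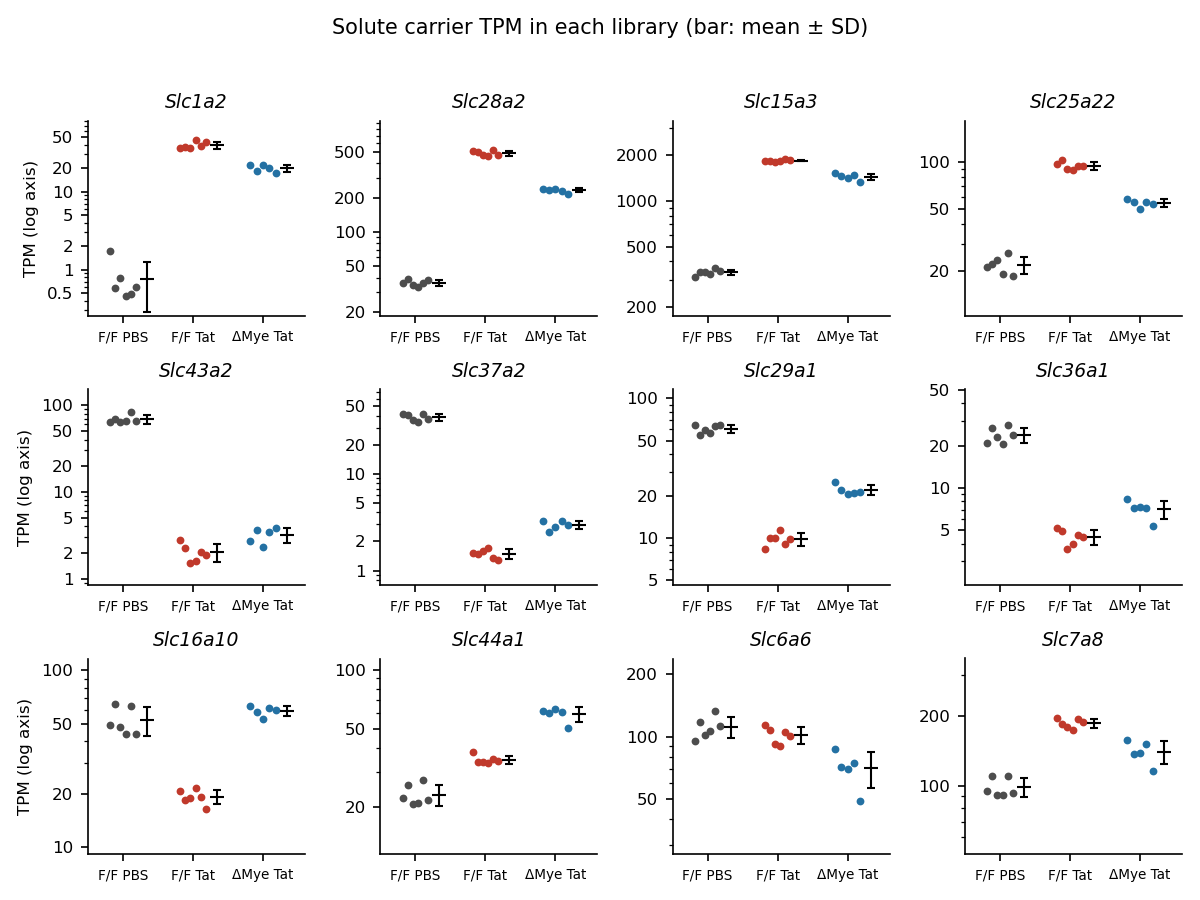
TPM (log axis) of 12 solute carrier genes in each of the 17 libraries, with the group mean ± SD in black (n = 6, 6 and 5). The top row rises with Tat and is lower in ΔMye Tat, the middle row falls with Tat and is higher in ΔMye Tat by mean, and Slc16a10 has ΔMye Tat libraries (53.1 to 62.9 TPM) that overlap F/F PBS on this unscaled TPM.

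The 26 carriers of amino acids and peptides include Slc16a10 by its substrates and not by its family number. With Tat, 2 were called higher and 4 lower, against 5.21% and 19.4% of all tested genes. By the adjusted p alone 5 rose and 19 fell, against 17% and 67.6%. The class median was -0.73, or -0.10 after scaling, where 9 rose and 9 fell (37.1% and 38.1% of all tested genes). The fall was steepest for Slc43a2, a facilitator of leucine, methionine and phenylalanine. It ranged from 63.5 to 84.1 TPM in F/F PBS (median 65.5) and from 1.52 to 2.82 in F/F Tat (median 1.97), and read 2.72, 3.62, 2.33, 3.44 and 3.79 TPM in ΔMye Tat. PBS libraries stood apart from both Tat groups, which overlapped. Its mean after Tat was 2.95% of the PBS mean, a log2 difference of -5.04 (SE 0.14, adjusted p = 2.04e-17, limma). Between the Tat groups the difference was 0.63 (adjusted p = 9.87e-04), which did not pass after scaling (0.43, adjusted p = 0.0177).

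Slc1a5, the neutral amino acid exchanger that brings in glutamine, fell from 20.2 to 27.4 TPM in F/F PBS (median 24.2) to 3.24 to 4.94 in F/F Tat (median 4.03). It was at 6.62, 4.70, 6.63, 7.55 and 4.15 TPM in ΔMye Tat, overlapping F/F Tat in 2 libraries. The log2 difference with Tat was -2.57 (SE 0.14, adjusted p = 1.04e-12, limma). The difference between the Tat groups, 0.56 (adjusted p = 0.00300), did not pass after scaling (0.35, adjusted p = 0.0350) or without ΔMye Tat library 19, 21 or 22 (0.46 to 0.51, adjusted p = 0.0101 to 0.0121).

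The lysosomal members of this class went in opposite directions, since Slc15a3 rose with Tat as given above and those described next fell. Slc36a1, a proton-coupled exporter of small amino acids from the lysosome, had 20.7 to 27.9 TPM in F/F PBS (median 23.6), 3.65 to 5.15 in F/F Tat (median 4.50), and 8.29, 7.2, 7.25, 7.12 and 5.36 in ΔMye Tat. No groups overlapped, and the log2 difference was -2.40 with Tat (SE 0.11, adjusted p = 4.36e-14, limma) and 0.65 between the Tat groups (SE 0.11, adjusted p = 6.96e-05). Slc15a4, the relative of Slc15a3 that endolysosomal Toll-like receptor signalling is known to need, fell from 32.6 ± 4.73 to 8.60 ± 1.379 TPM (SD, n = 6 and 6), a log2 difference of -1.91 (adjusted p = 6.42e-11). It was at 13.4 ± 2.84 TPM in ΔMye Tat (n = 5), where library 23 (9.08) lay within the F/F Tat range and the other 4 above it. The difference, 0.62 (adjusted p = 9.30e-04), did not pass after scaling (0.41, adjusted p = 0.0110). Slc38a9, the lysosomal arginine sensor that signals to mTORC1, fell from 3.61 ± 0.178 to 1.58 ± 0.156 TPM. Its log2 difference with Tat was -1.15 (adjusted p = 1.43e-09), or -0.058 (adjusted p = 0.551) after quantile normalization. Its ΔMye Tat mean was 1.69 ± 0.184 TPM, with a difference of 0.09 from F/F Tat that turned to -0.11 after scaling.

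The heavy chain Slc3a2 (CD98) and its light chains did not move as a unit. Slc3a2, which brings the light chains to the cell surface, was at 502 to 528 TPM in F/F PBS (median 519), 692 to 726 in F/F Tat (median 696), and 685, 677, 676, 702 and 674 in ΔMye Tat. The Tat groups overlapped each other and both exceeded PBS, with a log2 difference of 0.44 with Tat (SE 0.02, adjusted p = 1.25e-13, limma). Slc7a8, a light chain for neutral amino acids, rose from 91.5 to 110 TPM (median 94.1) to 174 to 196 (median 187), and was at 157, 137, 138, 151 and 116 TPM in ΔMye Tat. Its log2 difference was 0.92 with Tat (adjusted p = 7.86e-11) and -0.42 between the Tat groups (adjusted p = 3.93e-05). In contrast, Slc7a7, the light chain that exports cationic amino acids, fell from 28.2 to 39.7 TPM (median 31.5) to 11.2 to 14.1 (median 13.03), with 21.6, 19.8, 23.8, 25.2 and 19.8 TPM in ΔMye Tat. Here the log2 differences were -1.34 with Tat (adjusted p = 1.28e-11) and 0.77 between the Tat groups (adjusted p = 5.82e-07). Slc7a5, the light chain of the leucine transporter LAT1, was at 25.4 ± 3.02, 21.3 ± 1.09 and 25.99 ± 2.68 TPM in the 3 groups. Its difference with Tat of -0.25 (adjusted p = 0.00484) turned to 0.38 after scaling. It missed the threshold without F/F PBS library 2 or 5 or F/F Tat library 8 or 11 (-0.23 to -0.19, adjusted p = 0.0117 to 0.0140).

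Slc16a10, the facilitator of aromatic amino acids that also moves thyroid hormone, was the only member called between the Tat groups, where 0.440% of all tested genes were called higher and 0.316% lower. It had 43.5 to 64.9 TPM in F/F PBS (median 48.6), 16.4 to 21.7 in F/F Tat (median 19.03), and 62.9, 58.1, 53.1, 61.5 and 59.9 in ΔMye Tat. The ΔMye Tat libraries overlapped the PBS libraries and lay above all F/F Tat libraries. The log2 difference was -1.42 with Tat (SE 0.09, adjusted p = 3.03e-11, limma) and 1.62 for ΔMye Tat against F/F Tat (SE 0.10, adjusted p = 1.10e-10). Against F/F PBS it was 0.20 (adjusted p = 0.0711, limma; exact two-sided permutation p = 0.143). The fold change between the Tat groups was 3.07, close to the threshold of 3, and was 2.98 without F/F Tat library 12 and 2.65 after scaling, with adjusted p of 5.37e-10 and 3.13e-10. The overlap with PBS is on TPM as deposited. Over the settings that kept all libraries, the log2 difference with Tat was -1.42 to -0.79 and that between the Tat groups 1.40 to 1.62. The level of ΔMye Tat relative to F/F PBS thus depends on the scale.

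Other amino acid carriers had smaller or no called changes. Slc6a6, the taurine transporter, overlapped between F/F PBS (95.3 to 133 TPM, median 110) and F/F Tat (90.4 to 114, median 103), and was lower in ΔMye Tat at 87.1, 71.9, 69.9, 74.4 and 48.99 TPM. The log2 difference between the Tat groups was -0.55 (SE 0.11, adjusted p = 3.49e-04, limma), and the one with Tat was -0.13 (adjusted p = 0.259), or 0.50 after scaling. Slc36a4, a high-affinity carrier of proline and tryptophan, had means of 23.5 ± 2.57, 9.74 ± 0.533 and 16.3 ± 2.27 TPM in the 3 groups, which did not overlap. It differed by -1.26 with Tat (adjusted p = 2.29e-11) and by 0.73 between the Tat groups (adjusted p = 8.65e-07). Slc38a2, the glutamine and alanine importer that responds to amino acid shortage, was at 42.1 ± 3.39, 26.4 ± 1.28 and 28.6 ± 3.37 TPM. Its difference with Tat of -0.67 (adjusted p = 1.53e-08) shrank to -0.04 (adjusted p = 0.441) after scaling.

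Carriers of nucleosides split in the same libraries. While Slc28a2 rose, Slc29a1, the equilibrative nucleoside transporter of the plasma membrane, fell from 55.1 to 64.4 TPM in F/F PBS (median 61.5) to 8.35 to 11.4 in F/F Tat (median 9.98). It was at 25.4, 22.2, 20.6, 21.2 and 21.6 TPM in ΔMye Tat, and no groups overlapped. Slc29a1 differed on the log2 scale by -2.62 with Tat (SE 0.07, adjusted p = 1.19e-17, limma) and 1.17 between the Tat groups (SE 0.07, adjusted p = 1.23e-10). Slc29a3, the equilibrative transporter of lysosomes, was at 63.1 ± 5.52, 31.9 ± 2.40 and 30.1 ± 3.65 TPM. Its fall was -0.98 (adjusted p = 2.40e-10), and its Tat groups overlapped (exact two-sided permutation p = 0.364). After scaling, ΔMye Tat was lower than F/F Tat by -0.30 (adjusted p = 3.08e-04, limma), and after quantile normalization by -0.23 (adjusted p = 0.00846). Slc29a2 reached 1 TPM in PBS libraries only.

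Sugar and sugar phosphate carriers had 10 members, of which 8 were called lower and 0 higher with Tat, against 19.4% and 5.21% of all tested genes. Their median was -2.08. After scaling 4 were called lower, against 9.76% of all tested genes, and the median was -1.50. The glucose transporters Slc2a1 and Slc2a6, left out by name, were at 29.5 ± 2.36 and 74.6 ± 3.72 TPM in F/F PBS and at 92.1 ± 5.503 and 360 ± 13.2 in F/F Tat, so this count does not stand for glucose uptake genes as a whole. Slc37a2, an exchanger of glucose 6-phosphate and phosphate in the endoplasmic reticulum, ranged from 34.2 to 41.6 TPM in F/F PBS (median 39.1) and from 1.28 to 1.71 in F/F Tat (median 1.503). In ΔMye Tat it had 3.24, 2.52, 2.84, 3.28 and 2.98 TPM, without overlap of any groups and far nearer to F/F Tat than to PBS. Slc37a2 differed on the log2 scale by -4.61 with Tat (SE 0.09, adjusted p = 4.55e-20, limma) and 0.95 between the Tat groups (SE 0.09, adjusted p = 4.58e-08). Its relative Slc37a4, the glucose 6-phosphate translocase that feeds glucose 6-phosphatase, had means of 12.3 ± 1.72, 2.71 ± 0.707 and 4.18 ± 0.320 TPM. Slc45a4 was at 22.6 ± 2.10, 3.83 ± 0.681 and 6.07 ± 0.704 TPM, a log2 difference of -2.54 with Tat (adjusted p = 2.30e-14) and 0.66 between the Tat groups (adjusted p = 6.48e-05). Slc2a8, an intracellular hexose transporter, fell from 8.78 ± 0.651 to 0.739 ± 0.280 TPM. Slc5a6, placed here by its family number, carries biotin and pantothenate and was at 4.37 ± 0.245, 0.473 ± 0.137 and 1.42 ± 0.675 TPM. Slc2a3, among the 8 called lower, reached 1 TPM in PBS libraries only, so its being lower with Tat was fixed by that limit. The 2 members not called were Slc37a1 and Slc37a3, with differences of -0.73 (adjusted p = 0.158) and -0.61 (adjusted p = 0.0345).

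Of 12 carriers of monocarboxylates and other organic ions, 8 were called lower and 0 higher with Tat, against 19.4% and 5.21% of all tested genes. Their median was -2.12. After scaling 6 were called lower, against 9.76% of all tested genes, and the median was -1.51. The class omits Slc16a1 and Slc16a3, lactate carriers left out by name, and neither of them fell. Slc16a1 differed by 0.16 with Tat (adjusted p = 0.0133, limma) and Slc16a3 by 0.62 (adjusted p = 1.25e-08), both under the fold threshold. The class counts therefore do not describe all lactate carrier genes. Slc16a7, a high-affinity importer of lactate and pyruvate, was at 16.1 to 21.4 TPM in F/F PBS (median 19.4), 1.91 to 2.77 in F/F Tat (median 2.17), and 3.89, 3.26, 3.66, 2.70 and 3.39 in ΔMye Tat. Both Tat groups lay well below PBS and overlapped each other, with a log2 difference of -3.03 with Tat (SE 0.10, adjusted p = 8.16e-16, limma). Slc17a5, which exports sialic acid from lysosomes, had means of 16.1 ± 1.43, 2.75 ± 0.260 and 3.62 ± 0.252 TPM, a log2 difference of -2.50 (adjusted p = 2.79e-16). Slc16a6, linked to the export of ketone bodies, was at 27.2 ± 3.95, 6.53 ± 0.456 and 12.4 ± 1.03 TPM in the 3 groups. It differed by -2.03 with Tat (adjusted p = 1.58e-14) and by 0.91 between the Tat groups (adjusted p = 6.56e-08), and shares 22.4% of its 31-base sequences with Amz2. Slc22a4, the ergothioneine transporter, and Slc22a5, the carnitine importer, were at 12.9 ± 0.805 and 5.61 ± 0.338 TPM in F/F PBS and at 2.57 ± 0.371 and 2.54 ± 0.318 in F/F Tat. Only the first of these passed the fold threshold, with log2 differences of -2.29 and -1.12. Slc17a9, which loads ATP into vesicles and lysosomes, and Slc13a3, a dicarboxylate importer, reached 1 TPM in PBS libraries only. Slc10a6, a carrier of steroid sulfates at 0.976 ± 0.151, 1.12 ± 0.227 and 0.638 ± 0.130 TPM, was the only one of the class not to pass with Tat.

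The 33 mitochondrial carriers of the Slc25 family had 1 member called higher, Slc25a22, and 10 called lower, against 5.21% and 19.4% of all tested genes. Their median was -1.03. After scaling 1 and 2 were called, against 8.51% and 9.76%, and the median was -0.41. The most abundant, Slc25a5 and Slc25a3, serve ATP synthesis. Slc25a5, the main ADP/ATP translocase here, had 435 to 474 TPM in F/F PBS (median 470), 282 to 297 in F/F Tat (median 287), and 288, 305, 303, 302 and 317 in ΔMye Tat. Its log2 difference with Tat, -0.67 (SE 0.03, adjusted p = 3.46e-14, limma), was near the median of all genes and was -0.04 (adjusted p = 0.446) after scaling, and 49.4% of its 31-base sequences occur elsewhere. Slc25a4, the isoform typical of muscle, fell further, from 49.9 ± 2.59 to 14.98 ± 1.47 TPM (-1.73, adjusted p = 1.66e-15), and was at 23.4 ± 1.70 in ΔMye Tat (0.64, adjusted p = 1.27e-07). Slc25a3, the phosphate carrier, was at 344 ± 7.05, 254 ± 4.94 and 261 ± 3.70 TPM, a difference with Tat of -0.43 (adjusted p = 3.67e-13) that turned to 0.20 after scaling.

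Carriers of metabolites differed among themselves. Slc25a1, which exports citrate for fatty acid synthesis, overlapped between F/F PBS (50.1 to 53.8 TPM, median 50.8) and F/F Tat (50.1 to 56.4, median 53.6), and had 48.8, 47.6, 49.1, 48.3 and 48.1 TPM in ΔMye Tat. The log2 difference with Tat was 0.05 (adjusted p = 0.185, limma), or 0.68 (adjusted p = 2.31e-11) after scaling, and that between the Tat groups was -0.13 (adjusted p = 0.00300). Slc25a10, the dicarboxylate carrier, fell from 20.01 ± 1.13 to 5.81 ± 0.583 TPM and was at 13.2 ± 0.9002 in ΔMye Tat, with no overlap. Its log2 differences were -1.77 with Tat (adjusted p = 5.16e-15) and 1.17 between the Tat groups (adjusted p = 1.09e-10). Slc25a11, the oxoglutarate carrier of the malate-aspartate shuttle, was at 109 ± 3.21, 42.2 ± 1.44 and 66.1 ± 4.35 TPM. Slc25a45, whose role is less well known, had means of 23.8 ± 1.93, 3.26 ± 0.265 and 6.76 ± 1.10 TPM, differences of -2.83 (adjusted p = 2.16e-16) and 1.02 (adjusted p = 3.34e-08). Slc25a20, which brings acylcarnitines in for fatty acid oxidation, was at 20.2 ± 1.19, 11.4 ± 0.629 and 14.8 ± 0.730 TPM. It differed by -0.83 with Tat (adjusted p = 1.82e-11) and by 0.38 between the Tat groups (adjusted p = 1.30e-05, or 0.0306 after scaling).

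Of the 23 carriers of zinc, copper, magnesium and other metals, 0 were called higher and 5 lower with Tat, against 5.21% and 19.4% of all tested genes. The class median was -0.30, which turned to 0.32 after scaling. There 1 was called higher and 0 lower, against 8.51% and 9.76%. Slc39a14, the zinc and iron importer induced in the acute-phase response, was at 6.62 to 8.76 TPM in F/F PBS (median 7.73), 18.3 to 23.5 in F/F Tat (median 20.6), and 28.3, 20.9, 21.9, 23.4 and 20.1 in ΔMye Tat. The Tat groups overlapped each other above PBS. The log2 difference with Tat was 1.41 (SE 0.09, adjusted p = 6.62e-12, limma), under the fold threshold, and that between the Tat groups was 0.15 (adjusted p = 0.148), or -0.06 after scaling. In contrast, the plasma membrane zinc exporter Slc30a1 fell from 25.5 ± 1.94 to 10.4 ± 1.63 TPM (-1.29, adjusted p = 4.33e-11) and was at 12.1 ± 1.21 in ΔMye Tat. The zinc carriers Slc39a10, Slc39a11 and Slc39a13 were called lower, with differences of -1.74, -1.77 and -1.93.

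The copper transporters rose in both Tat groups. Slc31a1, the high-affinity importer, was at 66.9 to 72.9 TPM in F/F PBS (median 69.5), 78.3 to 84.6 in F/F Tat (median 82.1), and 110, 111, 111, 107 and 112 in ΔMye Tat. None of the groups overlapped, and the differences were 0.23 with Tat (adjusted p = 9.07e-07, limma) and 0.43 between the Tat groups (adjusted p = 1.66e-09). Slc31a2, its relative in endosomes and lysosomes, had 219 ± 6.64, 325 ± 7.01 and 373 ± 7.88 TPM, a rise with Tat of 0.57 (adjusted p = 3.39e-14) and a difference between the Tat groups of 0.20 (adjusted p = 3.50e-06) that turned to -0.02 after scaling. Slc39a1, a zinc importer with 27.7% of its 31-base sequences in a pseudogene, was at 125 ± 2.89, 138 ± 3.41 and 160 ± 6.69 TPM. It rose by 0.15 with Tat (adjusted p = 8.52e-05), and its difference between the Tat groups of 0.21 was -0.0038 after scaling.

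Inorganic ion carriers had 20 members, 0 called higher and 4 lower with Tat, against 5.21% and 19.4% of all tested genes. Their median of -0.61 turned to 0.02 after scaling. Slc12a4, a potassium chloride cotransporter used in volume control, rose from 21.6 ± 1.43 to 55.8 ± 1.99 TPM and was at 70.9 ± 5.26 in ΔMye Tat. Its log2 difference with Tat was 1.36 (SE 0.05, adjusted p = 2.08e-15, limma), under the fold threshold, and no groups overlapped. Slc12a2, the sodium potassium chloride cotransporter that acts in the opposite direction, was low at 1.61 ± 0.283, 0.441 ± 0.0732 and 0.675 ± 0.212 TPM and could pass the level limit through PBS libraries only. The same was true of Slc9a9, an endosomal sodium proton exchanger at 2.61 ± 0.366, 0.244 ± 0.130 and 0.386 ± 0.115 TPM. Slc20a1, a phosphate importer, was at 23.96 to 26.7 TPM in F/F PBS, 19.1 to 21.2 in F/F Tat and 25.4 to 30.8 in ΔMye Tat. Its difference with Tat, -0.36 (adjusted p = 8.81e-07), turned to 0.27 after scaling, and the one between the Tat groups was 0.47 (adjusted p = 2.34e-07) and 0.26 on the 2 scales.

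Vitamins, choline, haem and fatty acids had 12 carriers, of which 0 were called higher and 5 lower with Tat, against 5.21% and 19.4% of all tested genes. After scaling 2 were called lower, against 9.76%. Slc48a1, which moves haem out of the phagolysosome, was at 168 to 179 TPM in F/F PBS (median 176), 43.4 to 51.6 in F/F Tat (median 46.1), and 72.3, 71.5, 66.2, 66.8 and 66.8 in ΔMye Tat. The groups did not overlap. The log2 difference was -1.91 with Tat (SE 0.04, adjusted p = 1.96e-19, limma) and 0.56 between the Tat groups (SE 0.04, adjusted p = 1.17e-09). Slc46a3, a lysosomal carrier that reached 1 TPM in PBS libraries only, was at 8.63 ± 1.32, 0.279 ± 0.111 and 0.495 ± 0.104 TPM. Slc44a1, the choline transporter, was unlike these in rising with Tat and being higher again in ΔMye Tat. It had 20.7 to 27.2 TPM in F/F PBS (median 21.9), 33.2 to 37.95 in F/F Tat (median 33.98), and 61.2, 59.8, 63.2, 60.9 and 50.3 in ΔMye Tat, with differences of 0.59 (adjusted p = 1.52e-07) and 0.77 (adjusted p = 5.27e-08). Slc23a2, the ascorbate importer, was at 27.5 ± 2.91, 33.5 ± 2.34 and 45.1 ± 5.26 TPM. The thiamine importer Slc19a2 fell from 3.35 ± 0.399 to 1.44 ± 0.286 TPM (-1.17, adjusted p = 2.74e-08, or -0.078, adjusted p = 0.552, after quantile normalization). Its difference between the Tat groups, 0.17 (adjusted p = 0.261), was -0.03 after scaling.

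The 20 carriers of the Golgi and endoplasmic reticulum, most of which bring nucleotide sugars to the glycosylation enzymes, moved lower in small steps. By the adjusted p alone 19 fell and 0 rose with Tat, against 67.6% and 17% of all tested genes, but 2 were called lower, against 19.4%. After scaling 10 fell and 4 rose, against 38.1% and 37.1%. Slc35c2, linked to the fucosylation of Notch, went from 49.7 ± 3.37 to 7.75 ± 1.02 TPM (-2.67, adjusted p = 2.96e-16, limma), and was at 12.7 ± 1.65 in ΔMye Tat (0.71, adjusted p = 2.15e-06). Slc35b4 was the other called member, with means of 7.86 ± 0.651, 2.42 ± 0.181 and 3.88 ± 0.200 TPM. Slc35f6 was at 62.1 ± 6.79, 22.97 ± 2.16 and 38.4 ± 2.26 TPM, with differences of -1.43 (adjusted p = 2.83e-13) and 0.74 (adjusted p = 1.05e-07). Slc35a4 was at 121 to 143 TPM in F/F PBS, 67.4 to 109 in F/F Tat and 113 to 140 in ΔMye Tat, where it overlapped PBS. Its difference with Tat, -0.59 (adjusted p = 2.04e-06), was 0.04 after scaling. Of the 4 genes with an Slc symbol that encode no carrier, the scaffold Slc9a3r1 was the highest, at 137 ± 5.54, 180 ± 3.38 and 170 ± 5.93 TPM, a rise of 0.39 (adjusted p = 3.91e-10).

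**Figure D3:**
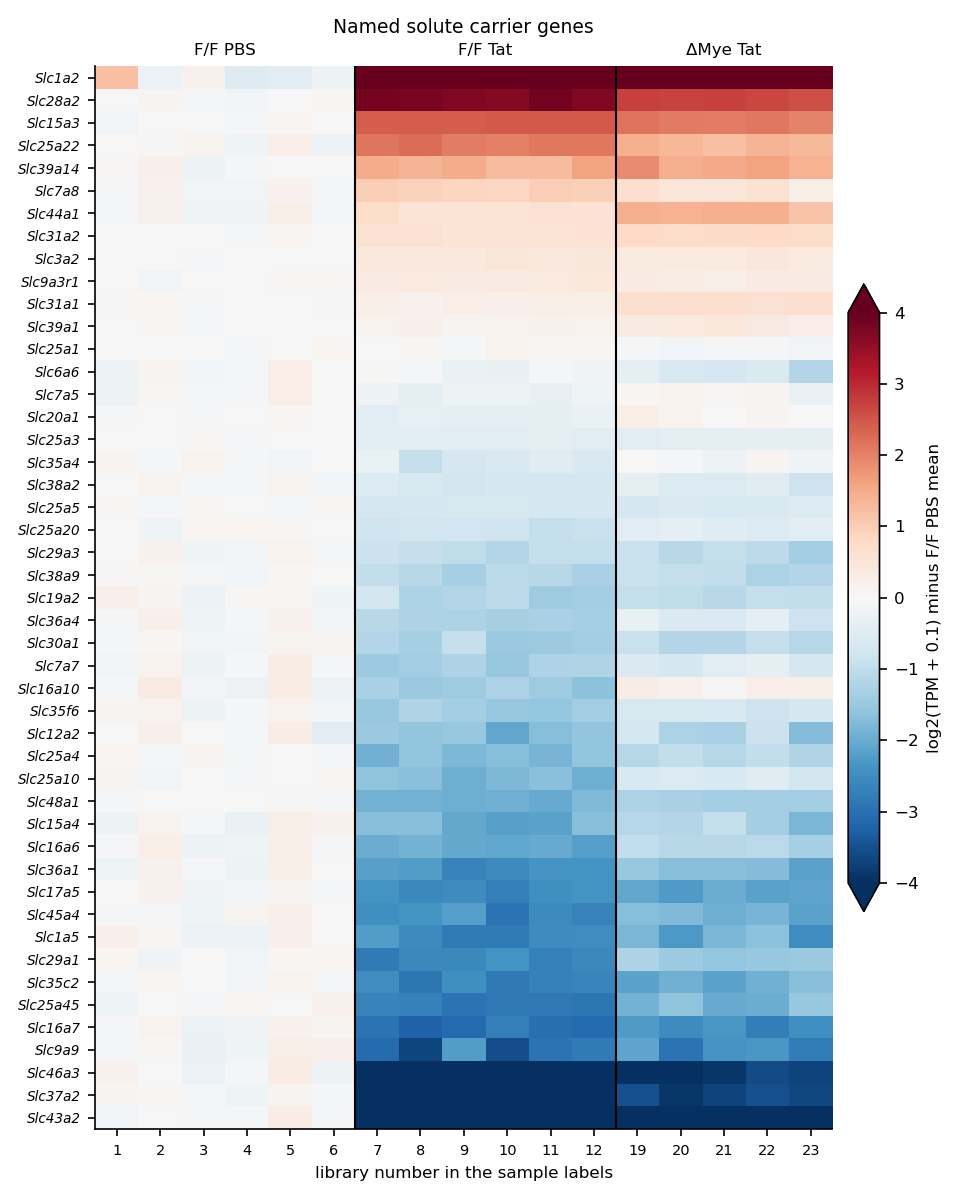
Each row is 1 of 47 named solute carrier genes and each column a library; colour is log2(TPM + 0.1) minus the F/F PBS mean of that gene, saturated at 4 on either side. Columns within a group look alike, and Slc16a10 is near white in F/F PBS and ΔMye Tat and blue in F/F Tat.

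For the deletion of IKKβ, ΔMye Tat was compared with F/F Tat over the same 164 genes. Besides Slc16a10 no member was called. Slc25a14, a mitochondrial carrier named after its values were seen, had a difference of 1.64 but did not pass (adjusted p = 0.101, limma), with group means of 0.463 TPM for F/F Tat and 1.18 for ΔMye Tat. Of all members, by the adjusted p alone, 78 were higher, against 38.8% of all tested genes, and 9 were lower, against 8.87%. After scaling these were 43 (16.4% of all genes) and 25 (18.8%). The groups did not overlap for 66 members, against 36.6%. The median difference was 0.32 for the members and 0.22 for all tested genes, or 0.12 and 0.01 after scaling. Among classes, higher and lower members by the adjusted p alone were 13 and 4 for amino acids and peptides, 18 and 3 for mitochondrial carriers, 11 and 0 for the Golgi group, 8 and 1 for organic ions, 8 and 0 for metals and 6 and 0 for sugars. They were 6 and 0 for inorganic ions, 6 and 0 for vitamins, choline, haem and fatty acids, and 1 and 1 for nucleosides. After scaling, amino acids and peptides had 5 higher and 7 lower, mitochondrial carriers 8 and 6, and the Golgi group 8 and 2. Organic ions then had 5 and 1, metals 4 and 2, sugars 4 and 0, inorganic ions 4 and 3, vitamins and related substrates 4 and 1, and nucleosides 1 and 2. The ΔMye Tat library with the lowest Ikbkb, number 23 (12.8 TPM), had the lowest value of its group for 81 of the 164 members and the highest for 17. It also had the lowest scaling factor (0.895) and the lowest summed TPM of the members (5878) in its group. Without it, 80 members were higher and 9 lower by the adjusted p alone. Neutrophil and T cell marker sums were higher in ΔMye Tat than in F/F Tat, and macrophage, mast cell and mesothelial sums lower, without overlap, as given above. The macrophage sum does not stand for its list, since by the adjusted p alone 4 of the 8 markers were higher and 2 lower. The 1 mesothelial marker tested passed in neither direction. The part of these cells in the differences was not tested.

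Against F/F PBS, 4 members were called higher in ΔMye Tat (4.38% of all tested genes) and 24 lower (11.1%). Those called higher were Slc1a2, Slc28a2, Slc15a3 and Slc12a4. This comparison shares its libraries with the other 2, so the values are set side by side only. From the PBS level, the log2 differences of F/F Tat and of ΔMye Tat were 5.65 and 4.65 for Slc1a2, 3.76 and 2.68 for Slc28a2, 2.44 and 2.08 for Slc15a3, 2.11 and 1.32 for Slc25a22 and 1.36 and 1.71 for Slc12a4. Among genes that fell they were -5.04 and -4.40 for Slc43a2, -4.61 and -3.66 for Slc37a2, -2.62 and -1.45 for Slc29a1, -1.77 and -0.60 for Slc25a10 and -1.42 and 0.20 for Slc16a10.

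**Figure D4:**
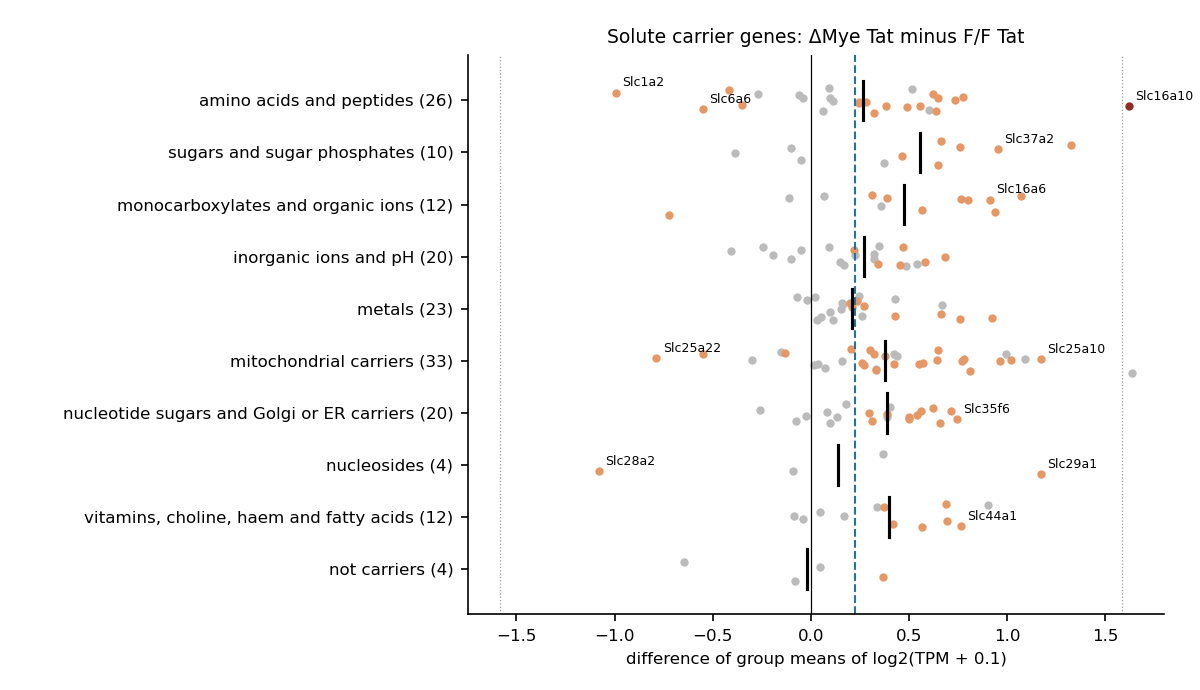
As in the plot of Tat differences by class, for ΔMye Tat minus F/F Tat (x axis, log2(TPM + 0.1)). The dashed line is the median of all tested genes (0.22), Slc16a10 is the only dark point beyond the 3-fold line (the grey point there is Slc25a14), and Slc28a2, Slc1a2 and Slc25a22 lie furthest to the left.

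Carriers related by family or by substrate changed their balance within a library. For 8 pairs, chosen after their values were seen and therefore given with no test, the log2 ratio of the 2 genes was taken in each library, a measure that scaling a library hardly moves. Slc15a3 over Slc15a4 was 3.23 to 3.62 in F/F PBS, 7.51 to 8.01 in F/F Tat and 6.399 to 7.18 in ΔMye Tat. The nucleoside pair Slc28a2 over Slc29a1 crossed equality, from -0.84 to -0.51 in F/F PBS to 5.33 to 5.92 in F/F Tat, with 3.23 to 3.54 in ΔMye Tat. Slc1a2 over Slc1a5 did so as well, from -5.56 to -3.91 to 2.83 to 3.77, with 1.41 to 2.02 in ΔMye Tat. The aspartate and glutamate carriers of mitochondria, Slc25a12 over Slc25a13, were at -1.51 to -0.89 in F/F PBS, 0.95 to 1.46 in F/F Tat and -0.63 to -0.01 in ΔMye Tat, where Slc25a13 was again the more abundant per length. For the mitochondrial iron importers Slc25a37 over Slc25a28 the ratios were -0.63 to 0.02, 0.99 to 1.83 and 1.502 to 2.08. For the choline carrier Slc44a1 over its relative Slc44a2 they were -0.56 to -0.27, 0.82 to 0.97 and 1.44 to 1.76. The groups did not overlap for 7 of the 8 pairs, the exception being Slc25a37 over Slc25a28, whose Tat groups overlapped.

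**Figure D5:**
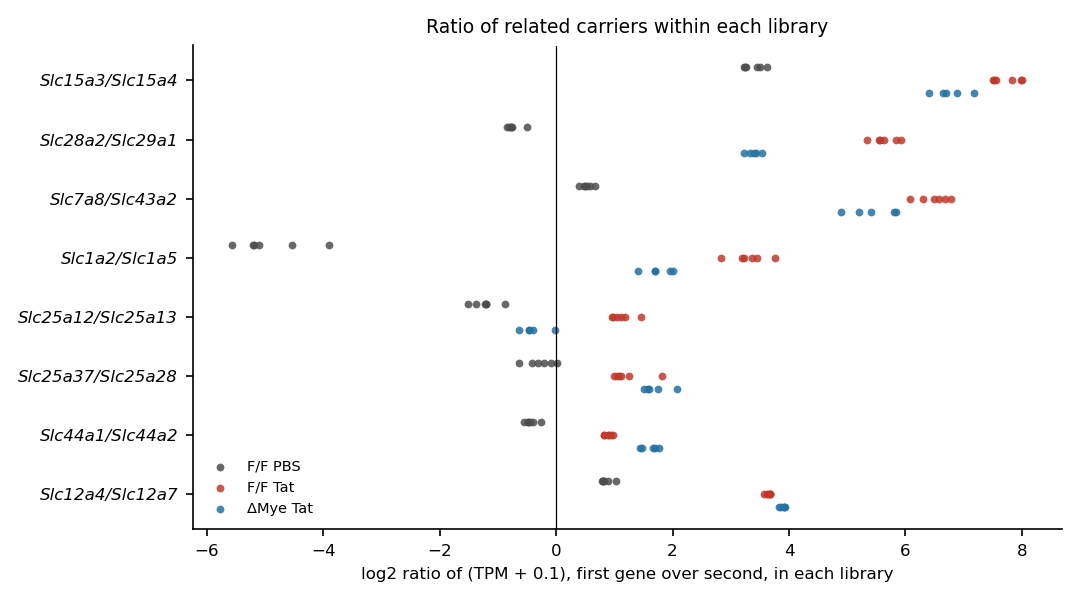
Points are the log2 ratio of TPM + 0.1 (x axis) of the first over the second gene of each pair in a library, with the 3 groups in 3 colours. F/F PBS lies to the left of both Tat groups in all 8 rows, and ΔMye Tat lies between the other groups in 5 rows and to the right of F/F Tat in most of its libraries in the other 3.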

How the data were processed

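The data are RNA-Seq of 17 PM libraries, grouped by the sample labels. The authors made the deposited TPM with Salmon from the Ensembl annotation of GRCm38 (mm10 in the submitters' processing notes), 1 column per library, and no scaling between libraries is stated. The authors compared counts in edgeR, by a likelihood ratio test after TMM, which was not repeated here because TPM keep no counts. Of 21683 rows, 26 have a symbol turned into a date and 2 repeat a symbol.

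The 10451 genes that reached 1 TPM in 5 or more libraries entered 1 fit of the 3 groups in R 4.3.3 with limma 3.58.1 (eBayes with trend, 14 residual degrees of freedom). Values were log2(TPM + 0.1), and p were adjusted by Benjamini-Hochberg over all these genes. The design had been written for these TPM. Single genes were also compared by exact two-sided permutation tests, for which the smallest possible p is 0.00216. The fit was tested on simulated data.

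The members, classes and lists were chosen with earlier results of these data known. Substrate classes follow the family number in the symbol, except that Slc16a10 was placed with the amino acid carriers by its substrates and that 4 symbols of genes that encode no carrier were set apart after the table was seen. The 47 named genes are the 10 highest by mean TPM, up to 10 rises and 10 falls with Tat and up to 8 of each between the Tat groups without overlap and with at least 10 TPM in the higher group, and 28 genes fixed for their roles; any others were named after their values were seen. Coordinates and shared 31-base sequences came from GENCODE M21 (163 of 164 members matched, 15 sharing at least 20%), and promoters from RefSeq (GRCm38.p6, 125 members matched). Python 3.11.15, numpy 2.4.6, pandas 2.3.3 and matplotlib 3.10.9 were used. Other settings tried were quantile normalization and median-ratio scaling of the libraries, a filter at 5 TPM or none, a pseudocount of 1 or 0.5, robust eBayes with array weights, a fit to the 2 compared groups alone, calls without the fold threshold, the exact Wilcoxon test, and leaving out each library.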

Additional observations from a re-analysis of the deposited data

Results flagged for a closer look

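In 5 of 141 groups of libraries examined for the 47 named genes, 1 library stood apart from the rest of its group. Chance flags about 1 in 20 such groups. For Slc1a2, F/F PBS library 1 had 1.72 TPM and the other 5 libraries 0.458 to 0.781. For Slc43a2, F/F PBS library 5 had 84.1 TPM and the others 63.5 to 68.6. For Slc44a1, F/F Tat library 7 had 37.95 TPM (others 33.2 to 34.99) and ΔMye Tat library 23 had 50.3 TPM (others 59.8 to 63.2). ΔMye Tat library 23 also stood apart for Slc7a5, at 21.2 TPM against 26.8 to 27.6. The library concerned was then left out. The log2 difference with Tat was then 5.89 for Slc1a2 (5.65 with all libraries), -4.98 for Slc43a2 (-5.04) and 0.57 for Slc44a1 (0.59). Without ΔMye Tat library 23, the difference between the Tat groups was 0.82 for Slc44a1 (0.77) and 0.35 for Slc7a5 (0.28). With all libraries, that of Slc7a5 was 0.069 after scaling and 0.10 after quantile normalization (adjusted p = 0.402 and 0.246, limma). It also missed the threshold without F/F Tat library 8 or 11 or ΔMye Tat library 19, 20, 21 or 22 (0.26 to 0.27, adjusted p = 0.0119 to 0.0162).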

How the results depend on the processing

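No paired analysis was possible because the groups share no library numbers in the labels. For members called higher and lower with Tat (4 and 49), the counts were 22 and 125 with no fold threshold and 9 and 20 after quantile normalization. Those called lower were 23 after median-ratio scaling and 31 with a pseudocount of 1. Between the Tat groups, the 1 member called higher was 78 with no fold threshold and 0 with the exact Wilcoxon test, scaling, a pseudocount of 1 or quantile normalization, and the 0 called lower were 9 with no fold threshold. By the adjusted p alone, the 78 higher and 9 lower members were 43 and 25 after scaling, 43 and 21 after quantile normalization, and 0 and 0 by the exact Wilcoxon test, whose smallest adjusted p over all tested genes was 0.0118 in this comparison. With each library left out in turn, the counts were 4 to 4 and 47 to 50 with Tat, and 0 to 1 (0 without F/F Tat library 12), 0 to 0, 69 to 80 and 9 to 10 between the Tat groups. After scaling, the direction between the Tat groups turned for Slc25a5 (-0.14), Slc31a2 (-0.016), Slc25a3 (-0.18), Slc39a1 (-0.0038), Slc38a2 (-0.10), Slc38a9 (-0.11), Slc39a14 (-0.059) and Slc19a2 (-0.030). With Tat it turned for Slc25a3 (0.20), Slc35a4 (0.037), Slc6a6 (0.50), Slc7a5 (0.38) and Slc20a1 (0.27). After quantile normalization it turned with Tat for Slc7a5 (0.22) and Slc20a1 (0.11), and between the Tat groups for Slc38a2 (-0.0397), Slc38a9 (-0.21), Slc39a14 (-0.028), Slc30a1 (-0.0063) and Slc19a2 (-0.13). Under the other alternatives no named gene turned. After quantile normalization the falls with Tat of Slc38a9 (-0.058), Slc19a2 (-0.078) and Slc12a2 (-0.40) no longer passed (adjusted p = 0.551, 0.552 and 0.0375, limma). After scaling, Slc3a2 (-0.25), Slc29a3 (-0.30) and Slc9a3r1 (-0.30) passed as lower in ΔMye Tat than in F/F Tat (adjusted p = 7.71e-06, 3.08e-04 and 7.68e-06). Scaling and quantile normalization recentre the libraries, and beyond that the cause was not tested. TPM give no depth, so differences of members near 1 TPM rest on few libraries and unknown counts.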

Other observations

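Of 49 genes of the solute carrier superfamily that have another kind of symbol, 30 passed the level limit, and 1 was called higher and 12 lower with Tat (1 and 4 after scaling). Of all tested genes 5.21% were called higher and 19.4% lower, or 8.51% and 9.76% after scaling. The one called higher was Slco3a1, an organic anion transporter of prostaglandins and steroid conjugates, at 5.40 ± 0.947 TPM after PBS, 316 ± 8.32 after Tat and 233 ± 18.9 in ΔMye PMs after Tat (mean ± SD, n = 6, 6 and 5, in this order below). Its log2 difference was 5.86 with Tat (adjusted p = 1.48e-21, limma) and -0.45 between the Tat groups (adjusted p = 4.30e-04). Ucp2, the uncoupling protein relative that exports carbon metabolites from mitochondria, was at 385 ± 15.2, 99.7 ± 5.51 and 163 ± 6.27 TPM. Pqlc3, a lysosomal carrier relative, was at 92.6 ± 5.30, 14.2 ± 1.40 and 28.3 ± 0.988 TPM, and Ctns, the lysosomal cystine exporter, at 25.4 ± 2.05, 5.27 ± 0.621 and 9.05 ± 0.377. The cholesterol transporter Npc1 was at 179 ± 18.4, 53.6 ± 1.90 and 69.2 ± 9.05 TPM. Of the chaperones of lactate transporters, Emb was called lower (-1.77, adjusted p = 2.50e-17) and Bsg differed by -0.47, or 0.16 after scaling.

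The metallothioneins, which buffer zinc and copper, parted from each other. Mt2 was at 102 ± 10.3 TPM after PBS, 395 ± 26.4 after Tat and 129 ± 8.82 in ΔMye PMs after Tat, with log2 differences of 1.96 with Tat (adjusted p = 1.91e-16, limma) and -1.62 between the Tat groups (adjusted p = 2.36e-13). Mt1 was at 439 ± 22.3, 226 ± 16.1 and 144 ± 8.38 TPM. Of 8 tested genes of muropeptide sensing and the partner pathway of Slc15a4, 4 were called higher with Tat (Nod1, Nod2, Ripk2 and Tlr7) and 0 lower, against the shares of all tested genes given above. Between the Tat groups, 2 of them were lower by the adjusted p alone (8.87% of all tested genes) and 0 higher (38.8%), and after scaling 6 were lower (18.8%) and 0 higher (16.4%). Of 15 tested genes of lysosomal amino acid sensing to mTORC1, 1 was called higher with Tat and 5 lower. The shares of all tested genes were 5.21% and 19.4%. After scaling 1 and 4 were called, against 8.51% and 9.76%. The one called higher, Sesn3, was low at 0.481 ± 0.0732, 2.002 ± 0.256 and 1.053 ± 0.409 TPM. Those called lower include Lamtor4, at 144 ± 8.15, 18.5 ± 2.40 and 33.9 ± 2.47 TPM. These lists were chosen with earlier results of these data known.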
